A study of Mus musculus with 6 samples.

Results

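The genes described here are the core regulators of the cell cycle in C2C12 cells, a mouse myoblast line: 10 cyclins, 6 cyclin-dependent kinases, 7 inhibitors, the 3 pocket proteins, 10 E2F and DP transcription factors, and Skp2, Cdc25a and Wee1. They were chosen as members of the pathway, by a rule that uses no measured value, but with earlier results of these data known. Of the 39 genes, 38 had a probe set that names a single gene, out of 19938 genes read in this way, and Ccnb1 was not read. Each gene was read from the brightest of its probe sets by the mean of the 6 arrays. Both lines carry a lentiviral shRNA, which is scrambled in scPARP2 cells and directed against PARP2 (gene Parp2) in shPARP2 cells, and both were kept under puromycin. They were grown in high-glucose DMEM with serum, each condition is 1 line, and whether a line is a clone is not stated. Total RNA of 3 samples per line was hybridized to Affymetrix Mouse Gene 1.0 ST arrays, 1 sample to an array, and the values are log2 signals made with RMA. Whether the 3 samples of a line came from separate cultures is not stated, and the p-values hold only for the spread among these samples, which may be technical.

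The targeted gene was lower in the line that carries its shRNA. Parp2 read 8.94, 9.13 and 9.05 on the scPARP2 arrays and 7.86, 8.14 and 7.91 on the shPARP2 arrays, a log2 fold change of -1.07 ± 0.10 (limma, adjusted p = 0.00103), where ± is here and below the standard error of the difference. The array medians lay between 7.04 and 7.18, with shPARP2 replicate 2 at the low end and shPARP2 replicate 3 at the high end. All 7 myoblast markers of the list had a probe set, among them Myod1 at 9.82 in scPARP2 and 9.62 in shPARP2 cells, Des at 11.82 and 12.21, and Pax7 near the median of all probe sets at 7.18 and 7.14. Of the 7, 5 (71.4%) were higher in shPARP2 cells at an adjusted p under 0.05 from limma, against 12.4% of all genes. Their log2 fold changes were 1.13 for Myf5, 0.96 for Itga7, 0.67 for Chrna1, 0.48 for Cdh15 and 0.39 for Des. Myod1 and Pax7 did not pass. The summed signal of the 7 was 13.49 to 13.54 on the scPARP2 and 13.96 to 14.26 on the shPARP2 arrays (log2). Of the markers of other cell types, 4 of 5 for leukocytes, 2 of 4 for epithelium, 3 of 4 for endothelium and 3 of 4 for adipocytes lay under the 40th percentile of the mean signal, among them Ptprc, Epcam, Pecam1 and Adipoq. The brightest were the keratin Krt8 at the 62.2nd percentile and the macrophage marker Cd68 at the 59.5th. Of these markers of other cell types Cd68 alone passed the test, with a log2 fold change of -0.72 (adjusted p = 0.00119 from limma).

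A cell enters S phase when cyclin D with CDK4 or CDK6, and then cyclin E with CDK2, phosphorylates the pocket proteins and releases the E2F factors that they hold on promoters. E2F then switches on genes of DNA synthesis, while cyclin A with CDK2 or CDK1 and cyclin B with CDK1 drive S phase, G2 and mitosis. Inhibitors of the INK4 family (Cdkn2a to Cdkn2d) block CDK4 and CDK6, those of the CIP/KIP family (Cdkn1b, Cdkn1c) block CDK2 as well, and withdrawal from this cycle precedes the fusion of myoblasts into myotubes. Many genes of late S phase and mitosis are held down in resting cells through a cell cycle homology region (CHR) near their start, and NF-Y binds CCAAT boxes beside it.

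Some promoters of these regulators hold words known as binding sites of the pathway's own factors. In the RefSeq promoter table (GRCm38.p6, 250 bases before to 50 after each start), 28 of the 39 genes have an entry. An E2F site was searched for as TTTCCCGC, TTTGGCGC, TTTCGCGC or TTTGCCGC, a CHR as TTTGAA and a CCAAT box as CCAAT, each on both strands. Of the 28 genes, 9 (32.1%) held an E2F match against 2.6% of all 27025 genes of the table, 10 (35.7%) a CHR match against 20.2%, and 17 (60.7%) a CCAAT box against 41.1%. Of 22 DNA synthesis genes described below 11 held an E2F match, and of 17 mitosis genes none held one while 12 held a CHR match. Per promoter of the same length, the shares over the whole table were 2.26%, 17.9% and 37.4%. The match is one of letters and says nothing of binding. The 150 bases before the start are printed for 7 genes with the matches in capitals, first those of Cdk1, Ccnb2 and Cdkn3, which carry a CHR match and differed widely between the shPARP2 arrays, as did E2f8, and then those of E2f3, Cdk2, Cdc25a and Skp2, which passed the test below.
Cdk1: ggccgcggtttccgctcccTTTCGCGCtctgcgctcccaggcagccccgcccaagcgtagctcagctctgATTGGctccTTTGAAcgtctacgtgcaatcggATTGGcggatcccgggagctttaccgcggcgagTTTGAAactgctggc
Ccnb2: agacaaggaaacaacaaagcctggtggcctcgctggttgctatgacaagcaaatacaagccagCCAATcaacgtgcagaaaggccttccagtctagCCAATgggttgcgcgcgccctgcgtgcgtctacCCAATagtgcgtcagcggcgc
Cdkn3: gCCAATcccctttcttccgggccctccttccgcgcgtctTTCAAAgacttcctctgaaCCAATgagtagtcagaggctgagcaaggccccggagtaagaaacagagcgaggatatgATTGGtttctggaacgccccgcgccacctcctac
E2f3: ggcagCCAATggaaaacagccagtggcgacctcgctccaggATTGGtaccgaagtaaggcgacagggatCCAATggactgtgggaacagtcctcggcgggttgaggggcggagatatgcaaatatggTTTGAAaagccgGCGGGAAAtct
Cdk2: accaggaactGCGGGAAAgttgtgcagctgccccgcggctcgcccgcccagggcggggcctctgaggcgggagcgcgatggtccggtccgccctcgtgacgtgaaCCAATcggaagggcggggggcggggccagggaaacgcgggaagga
Cdc25a: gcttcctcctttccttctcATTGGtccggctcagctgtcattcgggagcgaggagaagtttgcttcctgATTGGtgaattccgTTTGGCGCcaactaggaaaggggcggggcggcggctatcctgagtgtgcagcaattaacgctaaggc
Skp2: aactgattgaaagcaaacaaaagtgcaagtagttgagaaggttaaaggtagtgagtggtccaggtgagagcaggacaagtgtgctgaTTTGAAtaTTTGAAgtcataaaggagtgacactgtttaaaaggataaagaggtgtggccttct
These stretches lie, in the same order, at chr10:69352913-69353062, minus strand; chr9:70421555-70421704, minus strand; chr14:46760391-46760540, plus strand; chr13:29986064-29986213, minus strand; chr10:128705052-128705201, minus strand; chr9:109875429-109875578, plus strand; and chr15:9155426-9155575, minus strand. Cdk1 holds 1 E2F match (TTTCGCGC), 2 CHR matches and 2 CCAAT boxes in this stretch. Ccnb2 holds 3 CCAAT boxes in it, and its CHR matches lie outside. E2f3 has its CHR and E2F matches close to the start, Cdk2 and Cdc25a hold 1 E2F match each, and Skp2 holds 2 CHR matches and no E2F match. No capital word overlaps another in these 7 stretches. By the test below, an E2F match was held by 2 of 6 higher genes, 1 of 4 lower genes and 6 of 17 genes that did not pass.

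**Figure D1:**
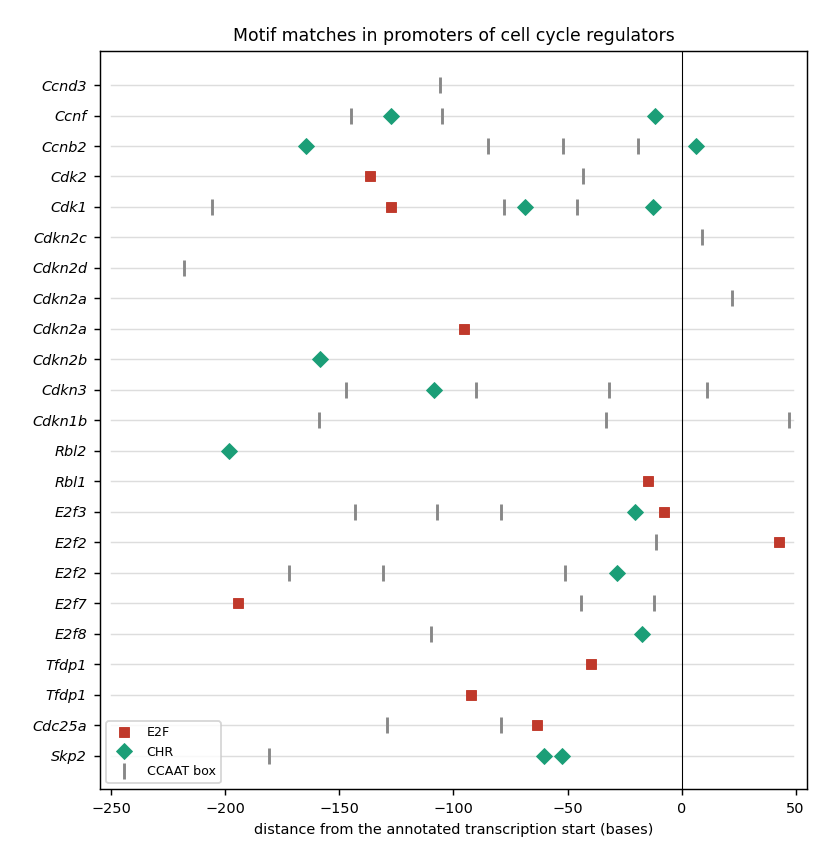
Positions of E2F (red squares), CHR (green diamonds) and CCAAT box (grey bars) matches by distance from the annotated start in bases, 1 line for each promoter of a measured gene that holds a match. The same E2F site of Tfdp1 appears in both of its overlapping promoters, and the CHR matches of Ccnf, Cdk1, E2f3 and E2f8 include one just before the start.

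In shPARP2 cells, 9 of the 38 regulators rose and 5 fell. Cyclins D2, D3 and E2, the kinases CDK2 and CDK6, the inhibitor Cdkn2d, the pocket proteins Rb1 and Rbl2 and the activator E2f3 were higher. CDK4, the repressors E2f5 and E2f6, the ubiquitin ligase subunit Skp2 and the phosphatase Cdc25a were lower. The largest changes were 1.82-fold up for Ccne2 and 1.70-fold up for Ccnd2, and no change that passed reached 2-fold. Of the 38, 4 (10.5%), namely Ccnd2, Ccnd3, Ccne2 and E2f5, passed with a change of at least 1.5-fold, against 10.1% of all genes. The 14 genes are 36.8% of the 38, against 24.0% of all 19938 genes, and by direction 23.7% were higher against 12.4% and 13.2% lower against 11.6% (adjusted p under 0.05 from limma). Ranked by mean signal, all 38 genes lie above the 45th percentile. Of the 13351 genes at or above the 40th percentile, 34.1% were called (17.8% higher and 16.3% lower). The share among the regulators is thus near that of these brighter genes, with more regulators higher and fewer lower. A place above this cut need not mean expression. Most listed markers of other cell types lie below it, but the adipocyte marker Plin1 (49.1) and the endothelial marker Cdh5 (43.6) lie above. The median log2 fold change was 0.10 over the 38 genes and -0.02 over all genes. By sign alone 21 genes were higher and 17 lower, against 44.9% and 55.1% of all genes. The lines did not overlap on any array for 23 of the 38 genes (60.5%), against 42.1% of all genes and 56.2% of the brighter ones, with 15 higher (20.7% of all genes) and 8 lower (21.4%). RNA of whole cultures cannot tell a smaller share of cells in a phase of the cycle from less RNA per cell.

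**Figure D2:**
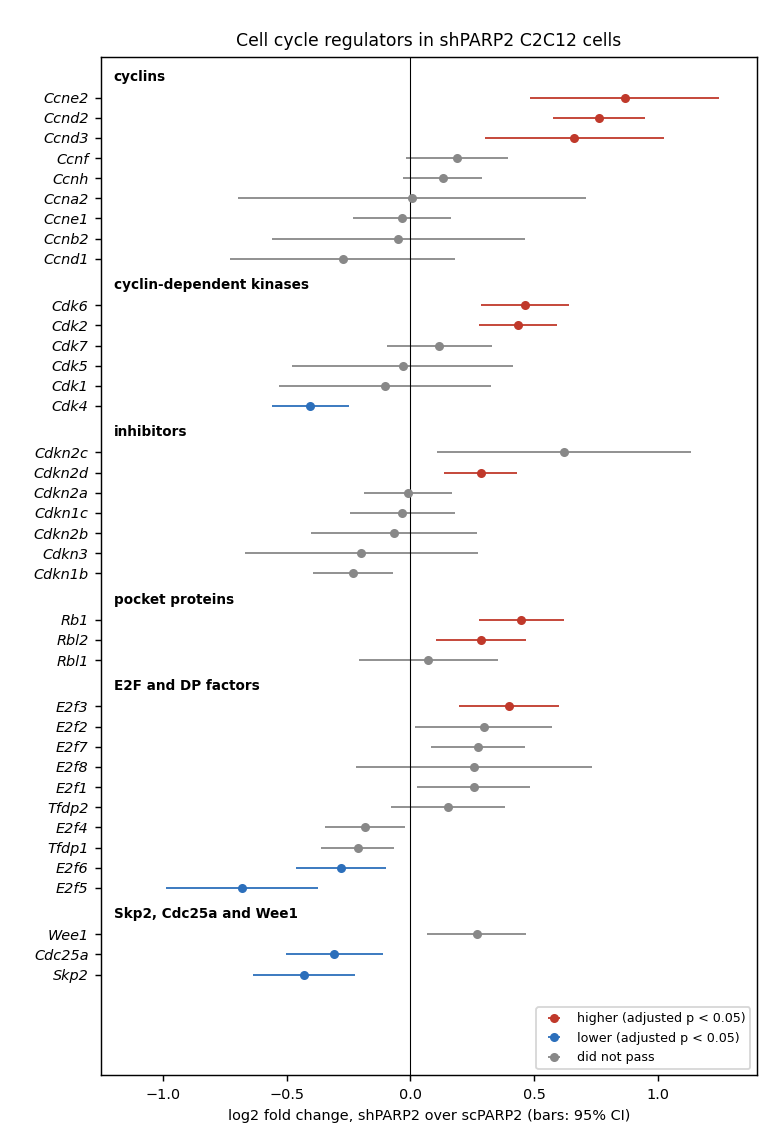
Log2 fold change of each regulator between shPARP2 and scPARP2 cells (horizontal axis), by role, with 95% confidence intervals from limma on 3 arrays against 3. Red points are the 9 higher and blue points the 5 lower genes at an adjusted p under 0.05, and the intervals are widest for Ccna2, Ccnb2, Cdkn2c and E2f8.

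Among the cyclins, D2, D3 and E2 rose and none fell. Ccnd2, which encodes cyclin D2, a partner of CDK4 and CDK6, read 9.37, 9.50 and 9.45 on scPARP2 replicates 1 to 3 and 10.21, 10.11 and 10.30 on shPARP2 replicates 1 to 3. The lowest shPARP2 array stood well above the highest scPARP2 array, and the log2 fold change was 0.76 ± 0.08 (limma, adjusted p = 0.00141). Ccnd3, the cyclin D of differentiating muscle, read 8.84, 8.90 and 8.83, against 9.59, 9.78 and 9.19 in shPARP2 cells. Its shPARP2 arrays were all above the scPARP2 arrays but spread over 0.59, with replicate 3 lowest, and the log2 fold change was 0.66 ± 0.15 (limma, adjusted p = 0.0262). The call of Ccnd3 ended when any scPARP2 replicate was left out, or shPARP2 replicate 1 (adjusted p from 0.0769 to 0.0914). Ccnd1, the D cyclin most directly induced by mitogens, read 11.02, 11.27 and 11.11, against 10.89, 11.22 and 10.47 in shPARP2 cells, and its lines overlapped. Its log2 fold change of -0.27 did not pass (adjusted p = 0.413 from limma, 95% confidence interval -0.73 to 0.18).

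Of the cyclin E genes, Ccne2 passed the test. It rose from 6.46, 6.64 and 6.28 on the scPARP2 arrays to 7.02, 7.53 and 7.43 on the shPARP2 arrays, with no overlap. Its log2 fold change of 0.87 ± 0.16 (limma, adjusted p = 0.0122) was the largest of the 38 genes, although its mean signal was the lowest of them, at the 45.6th percentile of all probe sets. Ccne1, the other cyclin E gene, read 7.95, 8.01 and 8.04, against 7.90, 7.90 and 8.11 in shPARP2 cells, and its log2 fold change was -0.03 (adjusted p = 0.848 from limma). Its interval of -0.23 to 0.16 does not reach the change of Ccne2. Ccnf, a cyclin that works as an F-box protein, and Ccnh, which activates CDK7, had log2 fold changes of 0.19 and 0.13 with adjusted p-values of 0.206 and 0.260 (limma).

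The kinases of G1 moved in opposite directions. Cdk6 read 10.42, 10.56 and 10.50 in scPARP2 and 10.94, 11.04 and 10.89 in shPARP2 cells, a difference on the log2 scale of 0.46 ± 0.07 (limma, adjusted p = 0.00751). Cdk4, which binds the same D cyclins, read 13.10, 13.12 and 13.09, against 12.66, 12.77 and 12.66 in shPARP2 cells, giving a log2 fold change of -0.40 ± 0.06 (limma, adjusted p = 0.00733). Cdk2, the partner of cyclins E and A, read 9.05, 8.99 and 9.04, against 9.40, 9.53 and 9.46 in shPARP2 cells, giving a log2 fold change of 0.43 ± 0.07 (limma, adjusted p = 0.00596). For each of these 3 genes the lines were apart on all arrays, and every call held when any one array was left out, with the highest adjusted p at 0.0436 for Cdk4. The changes were 1.38-fold, 1.32-fold and 1.35-fold in size, so each ended at a threshold of 1.5-fold. Cdk7, the kinase that activates other CDKs, had a log2 fold change of 0.12 (adjusted p = 0.465 from limma), and its dimmer probe set one of -0.03. Cdk5, a kinase best known from neurons, had one of -0.03 (adjusted p = 0.944 from limma, 95% confidence interval -0.48 to 0.42).

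Of the 7 inhibitors, Cdkn2d alone passed the test. Cdkn2d, which encodes the INK4 protein p19, read 7.30, 7.32 and 7.25 on the scPARP2 and 7.55, 7.55 and 7.61 on the shPARP2 arrays. The lines were narrow and apart, with a log2 fold change of 0.28 ± 0.06 (limma, adjusted p = 0.0223). The mean signal of Cdkn2d was at the 55.1st percentile of all probe sets. Its call ended when any scPARP2 replicate was left out, or shPARP2 replicate 1 (adjusted p from 0.0531 to 0.118). Cdkn2c, the INK4 protein p18, read 8.05, 8.04 and 7.90, against 8.43, 9.12 and 8.29 in shPARP2 cells. All its shPARP2 arrays were above all scPARP2 arrays, but replicate 2 stood far above the other two. The log2 fold change of 0.62 did not pass (adjusted p = 0.102 from limma, 95% confidence interval 0.11 to 1.13), and it passed at 0.37 without shPARP2 replicate 2 (adjusted p = 0.0347).

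Cdkn1b, the CIP/KIP inhibitor p27 that SKP2 marks for destruction, read 10.71, 10.68 and 10.65 in scPARP2 and 10.36, 10.48 and 10.50 in shPARP2 cells. The lines did not overlap, and the log2 fold change was -0.23 with an adjusted p of 0.0628 from limma, just outside the threshold. A dimmer probe set of the gene had a log2 fold change of 0.08 with overlapping lines, so the probe sets disagree in sign. Cdkn1c (p57), Cdkn2a (p16 and p19ARF) and Cdkn2b (p15) had log2 fold changes of -0.03, -0.01 and -0.07, and adjusted p-values of 0.861, 0.963 and 0.820 (limma). Their intervals ran from -0.25 to 0.18, -0.19 to 0.17 and -0.40 to 0.27. Their mean signals lay near the median, at the 54.7th, 52.4th and 51.6th percentile of all probe sets. Whether such signals stand above background was not tested, so flat values here need not mean unchanged expression. Cdkn1a (p21) was not read, because its probe set also names another gene.

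The pocket proteins Rb1 and Rbl2 rose. Rb1, the retinoblastoma protein that holds the activator E2Fs, read 10.15, 10.07 and 10.11 in scPARP2 and 10.49, 10.65 and 10.54 in shPARP2 cells, a difference on the log2 scale of 0.45 ± 0.07 (limma, adjusted p = 0.00711). Rbl2 (p130), which acts with E2F4 and E2F5 in resting cells, read 9.36, 9.31 and 9.34, against 9.61, 9.73 and 9.52 in shPARP2 cells, giving a log2 fold change of 0.28 ± 0.08 (limma, adjusted p = 0.0458). Rbl1 (p107), itself known as an E2F target, read 8.04, 8.11 and 8.16, against 8.02, 8.42 and 8.09 in shPARP2 cells, with overlapping lines and a log2 fold change of 0.07 (adjusted p = 0.757 from limma). The call of Rb1 held without any one array (adjusted p of at most 0.0417). That of Rbl2 ended on leaving out any array other than shPARP2 replicate 3 (0.0594 to 0.160 as adjusted p) and after centring of the arrays (0.0938).

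Of the 10 E2F and DP genes, E2f3 rose and E2f5 and E2f6 fell. The activators E2f1, E2f2 and E2f3 had log2 fold changes of 0.26, 0.30 and 0.40, and for each of them all shPARP2 arrays lay above all scPARP2 arrays. E2f3 read 9.12, 9.06 and 9.10, against 9.36, 9.62 and 9.50 in shPARP2 cells (adjusted p = 0.0206 from limma), and the adjusted p-values of E2f1 and E2f2 were 0.128 and 0.144. The dimmer probe set of E2f3 had a log2 fold change of 0.19 (adjusted p = 0.152 from limma), and the mean of both probe sets fell just short of the threshold. The call of E2f3 also ended without any one of the scPARP2 replicates (adjusted p from 0.0714 to 0.0867).

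E2f4, E2f5 and E2f6, which act mainly as repressors, had log2 fold changes of -0.18, -0.68 and -0.28, and all their shPARP2 arrays lay below all scPARP2 arrays. E2f5 read 9.23, 9.27 and 9.14, against 8.39, 8.81 and 8.39 in shPARP2 cells, giving a log2 fold change of -0.68 ± 0.13 (limma, adjusted p = 0.0132) and the largest fall of the 38 genes. The call of E2f5 ended narrowly without scPARP2 replicate 1 (adjusted p = 0.0544) or 2 (0.0570). E2f6, which represses without a pocket protein, read 9.71, 9.60 and 9.56, against 9.27, 9.42 and 9.34 in shPARP2 cells (adjusted p = 0.0469 from limma). Its call ended on leaving out any array other than shPARP2 replicate 2 (0.084 to 0.174 as adjusted p) and after centring of the arrays (0.111). E2f4 did not pass (adjusted p = 0.125 from limma).

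The atypical repressors E2f7 and E2f8 had log2 fold changes of 0.27 and 0.26, with adjusted p-values of 0.062 and 0.475 (limma). E2f7 was higher on all shPARP2 arrays, while the shPARP2 arrays of E2f8 read 7.55, 7.96 and 7.14 around scPARP2 values of 7.31, 7.34 and 7.22. Tfdp1, the common DP partner of the E2Fs, had a log2 fold change of -0.21 (adjusted p = 0.0599 from limma) on one probe set and -0.19 on its dimmer one, and Tfdp2 one of 0.15 (adjusted p = 0.374). Over the 10 E2F and DP genes the lines were apart for 8, against 42.1% of all genes and 56.2% of the brighter ones. Of these 8, 4 were higher and 4 lower in shPARP2 cells.

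Skp2 and Cdc25a, which push the cycle on, fell. Skp2, the substrate receptor of the ligase that degrades p27, read 8.74, 8.81 and 8.78 in scPARP2 and 8.40, 8.45 and 8.19 in shPARP2 cells, a difference on the log2 scale of -0.43 ± 0.09 (limma, adjusted p = 0.0164). Cdc25a, the phosphatase that frees CDK2 and CDK1 of inhibitory phosphate, read 9.427, 9.478 and 9.459, against 9.004, 9.234 and 9.205 in shPARP2 cells, giving a log2 fold change of -0.31 ± 0.08 (limma, adjusted p = 0.0456). Wee1, the kinase that adds that phosphate, read 9.34, 9.36 and 9.33, against 9.48, 9.74 and 9.61 in shPARP2 cells, and its log2 fold change of 0.27 did not pass (adjusted p = 0.0757 from limma), although it did under 5 alternatives (0.0354 to 0.0466). All 3 genes were apart between the lines on every array. The call of Skp2 ended without any one of the scPARP2 replicates (adjusted p from 0.0592 to 0.0723) and after centring (0.0506), and that of Cdc25a on leaving out any array other than shPARP2 replicate 2 (0.0592 to 0.154 as adjusted p) and after centring (0.0965). Partners and relatives of these genes in the list of other regulators were divided. Cks1b, the cofactor of SKP2, and Cdc25b, a further phosphatase, had log2 fold changes of -0.47 and -0.51, and Pkmyt1, a further inhibitory kinase of CDK1, one of 0.63 (adjusted p = 0.00592, 0.0111 and 0.00323 from limma). The ligase subunits Skp1a, Cul1 and Rbx1 and the phosphatase Cdc25c had log2 fold changes of -0.04, -0.15, -0.14 and 0.10 and did not pass (adjusted p = 0.837, 0.174, 0.223 and 0.546).

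**Figure D3:**
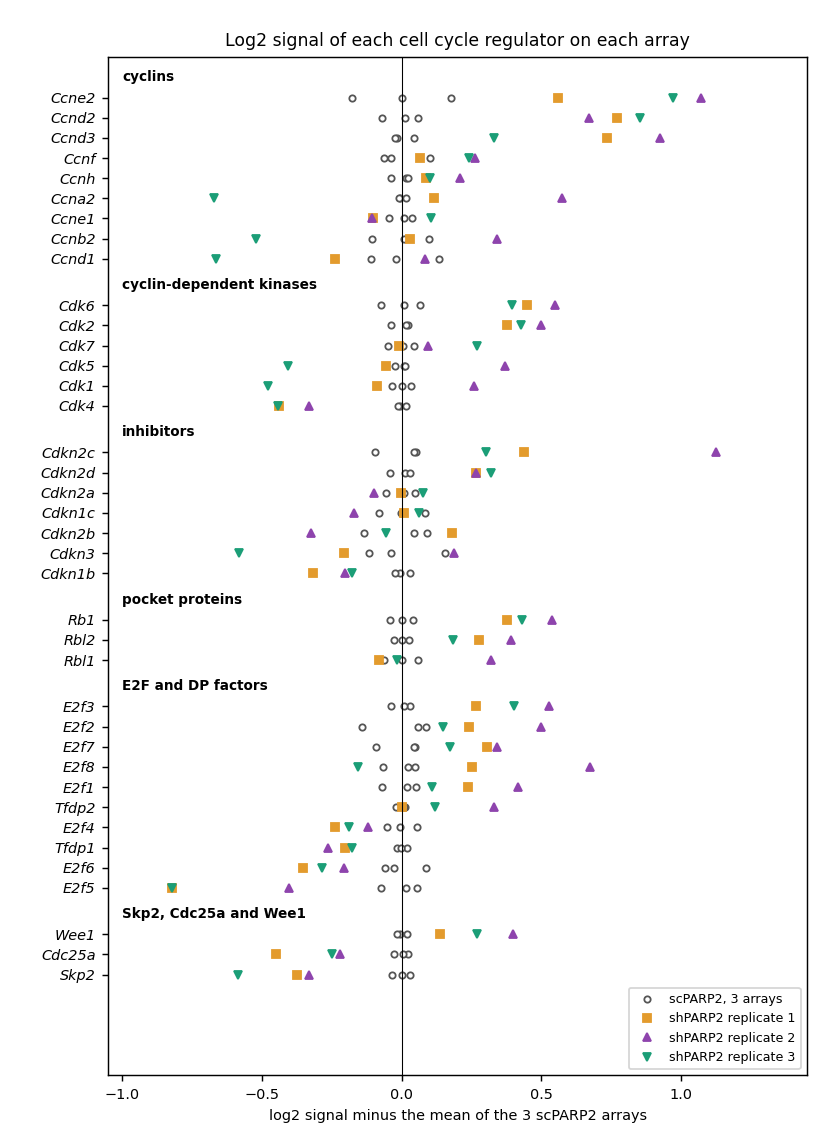
Log2 signal of the 38 regulators on each array relative to the scPARP2 mean (horizontal axis), with open circles for scPARP2 and a filled symbol for each shPARP2 replicate. The lines are apart for 23 genes. For Ccna2, Ccnb2, Cdk1, Cdk5, Cdkn3 and E2f8 shPARP2 replicate 2 lies above and shPARP2 replicate 3 below the scPARP2 arrays.

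The cyclins and kinase of mitosis had almost the same mean in both lines but differed widely between the shPARP2 arrays. Ccna2, cyclin A2 of S phase and G2, read 9.42, 9.42 and 9.44 on the scPARP2 arrays and 9.54, 10.00 and 8.76 on shPARP2 replicates 1 to 3. Ccnb2, a mitotic cyclin B, read 9.51, 9.71 and 9.62, against 9.65, 9.96 and 9.09 in shPARP2 cells, and Cdk1, its kinase, read 9.64, 9.68 and 9.71, against 9.59, 9.94 and 9.20 in shPARP2 cells. In each case shPARP2 replicate 2 was the highest and shPARP2 replicate 3 the lowest of the 6 arrays, and replicate 1 lay between. Between these 2 arrays Ccna2 differed by 2.37-fold, Ccnb2 by 1.82-fold and Cdk1 by 1.67-fold. The difference for Ccna2 exceeds the 1.82-fold change of Ccne2 between the lines. The SD among arrays was 0.01 in scPARP2 and 0.63 in shPARP2 cells for Ccna2, and the latter was at the 99.8th percentile of all genes. The log2 fold changes between the lines were 0.01, -0.05 and -0.10 (adjusted p = 0.994, 0.919 and 0.777 from limma), with intervals of -0.70 to 0.71, -0.56 to 0.46 and -0.53 to 0.33. These arrays therefore set no narrow limit on a difference in either direction, and without shPARP2 replicate 2 the value for Ccna2 was -0.28 and without replicate 3 it was 0.34. Neither passed the test.

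**Figure D4:**
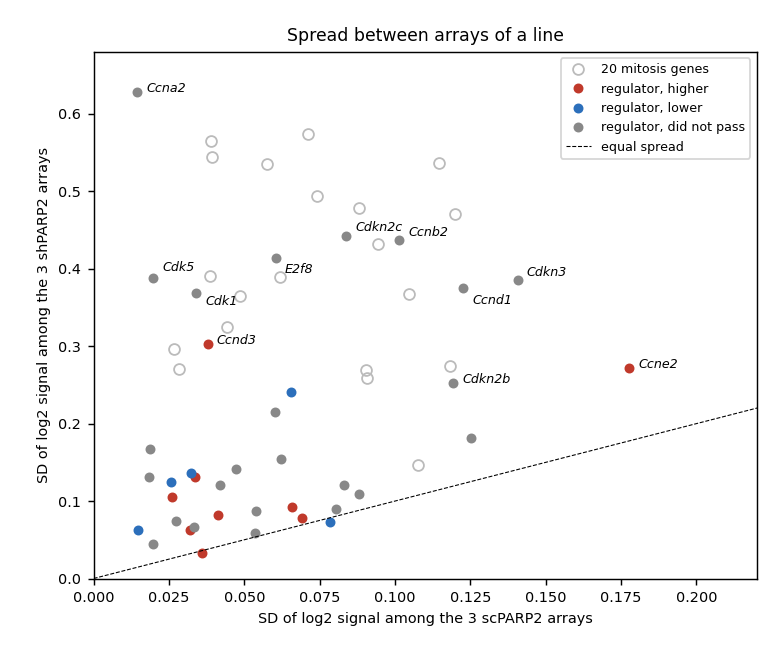
Standard deviation of the log2 signal among the 3 scPARP2 arrays (horizontal axis) and among the 3 shPARP2 arrays (vertical axis) for the 38 regulators (filled, by call) and 20 mitosis genes (open), with a dashed line of equal spread and unequal axis scales. Of the regulators 36 lie above the line, and Ccna2 is highest with 0.63 against 0.01.

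The same order of arrays was seen in other genes of mitosis. For 16 of the 38 regulators (42.1%) shPARP2 replicate 2 was the highest and replicate 3 the lowest of the shPARP2 arrays, against 20.7% of all genes, and for 19 of 20 mitosis genes. Among the 38, the genes with this order included Cdkn3, a phosphatase of CDK1 and CDK2 (7.01, 7.40 and 6.63 on the shPARP2 arrays), Cdk5 (9.77, 10.19 and 9.42), Cdkn2c, Ccnd1, Ccnd3 and E2f8. Cdkn2d (7.55, 7.55 and 7.61) and Ccnd2 had narrow values in another order. The 10 genes with a CHR match in the promoter table had a median SD of 0.217 among the shPARP2 arrays (0.105 to 0.437). The 17 without had one of 0.0898, over an overlapping range (0.0323 to 0.442). With an E2F match the median was 0.125 and without one 0.139. Ccna2, Ccnd1 and Cdk5 have no entry there and are in none of these groups. These 2 comparisons are descriptions made after the spread had been seen. The median signal of the whole array was lowest for replicate 2 and highest for replicate 3, and its part in this order was not tested. The order was also present in 11 of 12 muscle differentiation genes and 6 of 7 myoblast markers, whose part in the result was not tested. For 10 of the 38 regulators (26.3%, against 22.2% of all genes) the shPARP2 arrays lay on both sides of all scPARP2 arrays, and none of these 10 passed the test. The wider spread in shPARP2 cells was general, with a greater SD than in scPARP2 cells for 78.4% of all genes and for 36 of the 38 regulators.

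Genes downstream of the regulators are given from lists chosen by function and from the same fit. Of 25 measured genes of DNA synthesis known as E2F targets, 5 rose, 4 fell and 16 did not pass, with a median log2 fold change of 0.03. The share called was 36.0%, against 24.0% of all genes, and is near the 34.1% of the brighter ones. The ribonucleotide reductase subunits Rrm2 and Rrm1, which make deoxynucleotides, had the largest changes with 1.59 and 0.91 (adjusted p = 0.000665 and 0.000638 from limma), and Pola1, Mcm4 and Pcna also rose. Fen1, the flap nuclease, and Cdt1, a licensing factor that SKP2 helps to degrade, had log2 fold changes of -0.50 and -0.44 (adjusted p = 0.0375 and 0.00379 from limma), and the helicase subunits Mcm7 and Mcm2 fell as well. When any scPARP2 replicate was left out, or shPARP2 replicate 1, and after centring, the lower genes numbered 1.

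Of the 20 mitosis genes none passed the test in limma, and 3 had an unadjusted p under 0.05. The median log2 fold change was 0.14, from -0.51 for the centromere histone Cenpa to 0.60 for the kinesin Kif23. Without shPARP2 replicate 2, 5 genes were called lower, and without shPARP2 replicate 3, 5 were called higher. With array weights 1 was higher and 2 were lower, 2 were lower with dim probe sets left out and with single-gene probe sets alone, and 1 was lower with the trended variance and with the replicate block. None of the 8 MuvB, Myb and Foxm1 factors, which regulate mitotic genes through the CHR, passed in limma (2 at an unadjusted p under 0.05). Without shPARP2 replicate 2, 1 of them was called lower. Of 18 other regulators 4 rose and 4 fell (44.4%, against 24.0% of all genes and 34.1% of the brighter ones). Besides those named above, Fbxo5, an inhibitor of the anaphase-promoting complex, rose by 0.51, Cks2 by 0.42 and Mnat1, the assembly factor of CDK7 and cyclin H, by 0.37 on the log2 scale, while the cyclins G had log2 fold changes of -0.34 (Ccng1) and -0.29 (Ccng2), with adjusted p-values of at most 0.0414 among these 5 genes (limma).

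**Figure D5:**
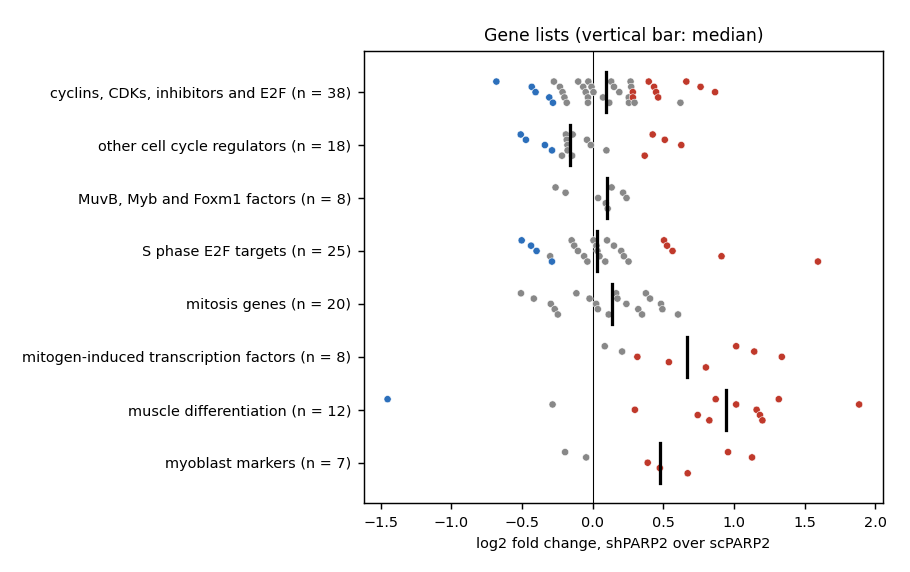
Log2 fold change between shPARP2 and scPARP2 cells (horizontal axis) of the 38 regulators and of 7 other lists, 1 point for each gene, red or blue where the adjusted p was under 0.05, with the median as a vertical bar. The medians run from -0.16 for other cell cycle regulators to 0.94 for muscle differentiation, and no mitosis gene is coloured.

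Transcription factors that answer to mitogens and genes of muscle differentiation also rose. Of 8 transcription factors induced by mitogens, 6 rose (75%, against 12.4% of all genes and 17.8% of the brighter ones) and none fell. Their median log2 fold change was 0.67. Egr1 rose by 1.34, Jun by 1.14, Fos by 1.02 and Junb by 0.80 on the log2 scale (adjusted p = 0.00373, 0.000247, 0.0126 and 0.00126 from limma), while Myc, an activator of Ccnd2 and Cdk4, had a log2 fold change of 0.21 (adjusted p = 0.0556). Of 12 genes of muscle differentiation, 10 rose and 1 fell (91.7% called, against 24.0% of all genes and 34.1% of the brighter ones). Mymk, which fuses myoblasts, rose by 1.89, Tnnc1 by 1.32 and Acta1 by 1.20 on the log2 scale (adjusted p = 0.000261, 0.000669 and 0.000814 from limma). Myog, the factor of terminal differentiation, rose by 0.83, whereas Mef2c had a log2 fold change of -1.45 (adjusted p = 0.00153 and 0.000304 from limma). The summed signal of the 12 genes was 13.56 to 13.66 on the scPARP2 and 14.40 to 14.82 on the shPARP2 arrays (log2). The part of these genes in the changes of the regulators was not tested. The summed signal of the 5 leukocyte markers was 8.97 to 9.05 in scPARP2 and 8.54 to 8.74 in shPARP2 cells (log2). Cd68, the brightest of them, had a log2 fold change of -0.72. The other 4, Ptprc among them, were dim and did not pass. The sums of the epithelial, endothelial and adipocyte markers overlapped between the lines, at 8.84 to 9.08 and 8.92 to 9.06, 8.45 to 8.52 and 8.24 to 8.57, and 8.01 to 8.07 and 7.84 to 8.13.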

How the data were processed

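Expression of C2C12 cells was measured on 6 Affymetrix Mouse Gene 1.0 ST arrays, with 3 scPARP2 and 3 shPARP2 samples grouped by the labels. The authors deposited log2 values of 35556 probe sets made with RMA, per the submitters' processing notes. No version of RMA is named, and the values were used as deposited.

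Gene names came from GEO's platform annotation: 21789 probe sets name 1 gene, 1621 name several and 12146 are not named here. A gene was read from the brightest probe set that names it alone. The lines were compared as in the article's methods by lmFit and eBayes of limma 3.58.1 (R 4.3.3) without a covariate, the p-values of all probe sets were adjusted by Benjamini-Hochberg, and the threshold was 0.05. Confidence intervals are at 95%. The fit was tested on simulated data. Motifs were read from the RefSeq promoter table (GRCm38.p6), and figures were drawn with matplotlib 3.10.9. Arrays give no read depth, and their number limits the precision.

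The genes and lists were chosen with earlier results of these data known. All 38 measured regulators are named, and in each other list up to 4 genes with the largest change past the test. Other genes outside this rule were picked with their values known. Alternatives included quantile normalization, centring on array medians, array weights, a variance fitted with trend and robustly, single-gene probe sets alone, removal of dim probe sets (below the 40th percentile), a block for the replicate number, a threshold of 0.01, a minimum change of 1.5-fold, averaging a gene's probe sets, and leaving out each array.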

Additional observations from a re-analysis of the deposited data

How the results depend on the processing

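Of the regulators, 9 rose and 5 fell with the deposited values. Fewer were lower after centring (2) and with the replicate block (3), and more (8) after quantile normalization and with array weights. Those higher numbered 6 with the replicate block, 8 after centring, and 12 with array weights and with single-gene probe sets alone. At an adjusted p under 0.01 there were 4 higher and 1 lower, and at 1.5-fold 3 higher and 1 lower. Leaving out 1 array gave 5 to 10 higher and 1 to 5 lower genes. Same-numbered arrays deviated with correlations of -0.05, 0.09 and 0.01. These values show no pairing of the samples by number, but with 3 arrays per line they cannot exclude one. The block ended the calls of Cdkn2d, Rbl2, E2f3, E2f6 and Cdc25a (9 calls left). The calls of Ccnd2, Ccne2, Cdk2, Cdk4, Cdk6 and Rb1 held without any one array, under the block and both scalings. Of the uncalled genes, Cdkn1b, Tfdp1 and Wee1 passed under 5 alternatives each (lowest adjusted p 0.0145, 0.0237 and 0.0354), E2f7 under 4 (0.0277), Cdkn2c under 3 (0.0341), E2f4 under 2 (0.0375) and E2f1 under 1 (0.0465). No called gene changed sign. Among uncalled genes, Ccna2 read -0.0084 and Cdkn2a 0.0050 after quantile normalization, Cdkn2a 0.0115 after centring, and Cdkn2a 0.0087, Cdkn2b 0.0769 and Rbl1 -0.0343 with array weights. Leaving out 1 array turned the sign of Ccna2 (-0.28 to 0.34), Ccnb2 (-0.25 to 0.19), Cdk1 (-0.28 to 0.0852), Cdk5 (-0.23 to 0.16), Ccne1 (-0.10 to 0.0017), Cdkn1c (-0.0805 to 0.0347), Cdkn2a (-0.0505 to 0.0370), Cdkn2b (-0.19 to 0.0617) and Rbl1 (-0.0498 to 0.15). The causes were not tested.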
